A study of Mus musculus with 3 samples.

Results

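Chromatin binding of EBF1, a transcription factor required for B cell specification, was read at 7 genes for coreceptors and surface regulators of B cells: Cd22, Cd24a, Cd37, Cd72, Cd74, Bank1 and Ptpn6. Regions of the deposited table were assigned to these genes where the centre of the region had one of them as its nearest protein-coding gene body (GRCm38, within 100 kb), and overlapping regions were merged. This gave 16 of the 4116 regions, which form 8 of the 2121 loci: 2 at Bank1 and 1 at each of the other 6 genes. The rule uses gene names and positions. The farthest of the 8 loci lay 56.2 kb from its gene.

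The counts came from chromatin immunoprecipitation and sequencing (ChIP-seq) with an antibody against EBF1. The cells were pro-B cells of C57BL/6 background, grown from Ebf1-/- progenitors carrying c-kit, which were taken from fetal liver at E16.5. All cells carried retroviruses for rtTA-Advanced with tdTomato and for a doxycycline-driven, FLAG-tagged NICD1, the active intracellular part of Notch1. They then received either EBF1wt or EBF1E271A, the form with the substitution E271A, each from a pMys retrovirus with a StrepFLAG tag and GFP. Cells matured on OP9 feeder cells and were then kept off them in doxycycline at 1 µg/ml for 6 hours. EBF1 therefore came from a virus in both groups, and no group without NICD1 induction is among the samples. Human BJAB lymphoma cells, mixed in as 1 cell to 10 mouse cells, supplied chromatin for scaling. The third library, an input from cells with EBF1wt, has no value per region here. ChIP counts carry no expression values, so the pro-B label was not checked against marker genes.

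Each group held 1 library, so differences between the groups could not be tested and have no check by replicates. Values are spike-in scaled counts per region of 300 bp, and each locus is given by its overlapping region with the higher mean count. One read was worth 1.58 scaled counts for EBF1wt and 0.632 for EBF1E271A, so the EBF1wt values rest on fewer reads. At the median locus these were 91 and 207 reads. Ratios are EBF1E271A over EBF1wt. Intervals at 95% come from the unscaled reads (exact binomial for ratios, exact Poisson for single counts) and cover counting error only.

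B cell coreceptors set how strongly the antigen receptor signals. Inhibitory coreceptors such as CD22 and CD72 carry tyrosine motifs in their tails that, once phosphorylated by the kinase Lyn, recruit the phosphatase SHP-1, the product of Ptpn6, which removes phosphates from signalling proteins. EBF1 binds DNA as a dimer, and its recognition sequence is a palindrome of which CCCNNGGG is the core.

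Of the 8 loci, 2 lay across the annotated promoter of their own gene, those of Cd22 and Ptpn6. Their sequences are shown because that of Cd22 held the EBF1 core exactly, close to the centre of its regions, and that of Ptpn6 did not. Promoter windows of RefSeq (GRCm38.p6, 250 bases before to 50 after a start site) were found for 5 of the 7 genes, all on the minus strand, and Cd24a and Cd74 had none. Of the 5 windows, those of Cd22 and Bank1 held CCCNNGGG, which is its own reverse complement and was searched once for both strands. The same letters were found in 13.7% of all 32851 windows of that length. The part of each locus upstream of the start site is printed for Cd22 (chr7:30879029-30879234, minus strand) and Ptpn6 (chr6:124738710-124738904, minus strand), followed by the match in the Bank1 window (chr3:136326069-136326098, minus strand), over which no region lay. Capitals mark the exact match in Cd22 and Bank1. In Ptpn6 they mark 2 stretches, each made of 2 overlapping windows that differ from CCCNNGGG by 1 letter.
Cd22: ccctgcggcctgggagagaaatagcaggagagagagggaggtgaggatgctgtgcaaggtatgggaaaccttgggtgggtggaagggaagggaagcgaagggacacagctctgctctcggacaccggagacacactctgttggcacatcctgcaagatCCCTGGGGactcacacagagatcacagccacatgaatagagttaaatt
Ptpn6: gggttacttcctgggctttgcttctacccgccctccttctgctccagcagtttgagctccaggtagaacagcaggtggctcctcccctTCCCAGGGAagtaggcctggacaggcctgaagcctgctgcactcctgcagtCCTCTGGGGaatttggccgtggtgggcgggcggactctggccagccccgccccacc
Bank1: tgcggcctgagCCCCTGGGctgcatttccg

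In Cd22 the centre of the exact match lay 5 bp from the centre of one region and 12 bp from that of the other. It covered positions -48 to -41 from the start site. Across the series, 125 loci had their centre inside a RefSeq promoter window, and 84 of them (67.2%, exact binomial interval 58.2% to 75.3%) held CCCNNGGG in that window. Where several windows held the centre, the one with most matches was taken, which can only raise this share. The 13.7% above is over single windows, and the interval here is over loci and not reads. The median distance of the nearest match from the centre was 11.5 bp at these 84 loci, so the position of the match in Cd22 was a common one. Ptpn6 was among the 41 without an exact match. Its window held 7 positions that differed by 1 letter. The nearest of these lay 6 bp from the centre of one region and 24 bp from that of the region that gives the counts. Such looser matches were found in 75% of all windows and in all 5 of the genes here. The Cd37 and Cd72 windows held no exact match, and no region lay over them. A match describes the letters in these windows and not a site, and no match says nothing about EBF1.

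**Figure D1:**
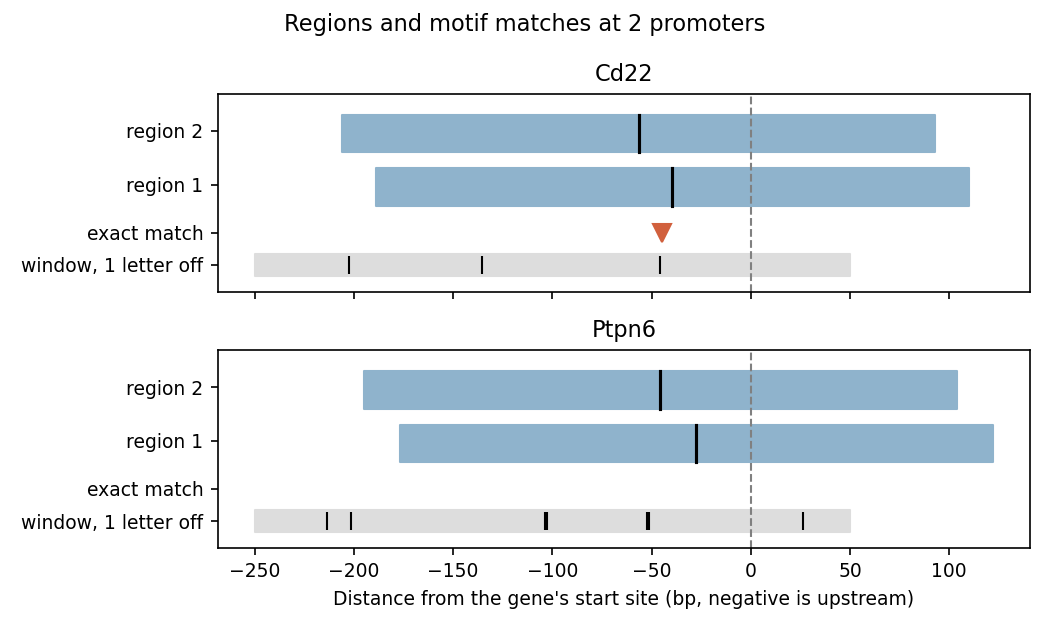
Regions and motif matches at Cd22 (top) and Ptpn6 (bottom), by distance from the start site in bp. Blue bars are the 2 overlapping regions of each locus with black lines at their centres, the grey bar is the promoter window, the triangle is the exact match to CCCNNGGG and black ticks are windows that differ by 1 letter. The exact match of Cd22 sits 5 and 12 bp from the centres of its regions, and Ptpn6 has none.

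Counts at the 8 loci differed more between genes than between the EBF1 proteins. Scaled counts ran from 90.1 at Ptpn6 to 416 at Cd24a for EBF1wt, and from 51.2 at Cd72 to 334 at Cd24a for EBF1E271A. Cd24a and the first Bank1 locus had the highest counts in both libraries. In EBF1wt the interval of Cd24a lay above all others, whereas in EBF1E271A it overlapped that of the first Bank1 locus. Cd22, Cd74 and the second Bank1 locus followed with overlapping intervals in both libraries. The lowest counts were those of Cd37, Cd72 and Ptpn6, with intervals that overlapped each other in EBF1wt. In EBF1E271A, Cd72 stood below all others.

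**Figure D2:**
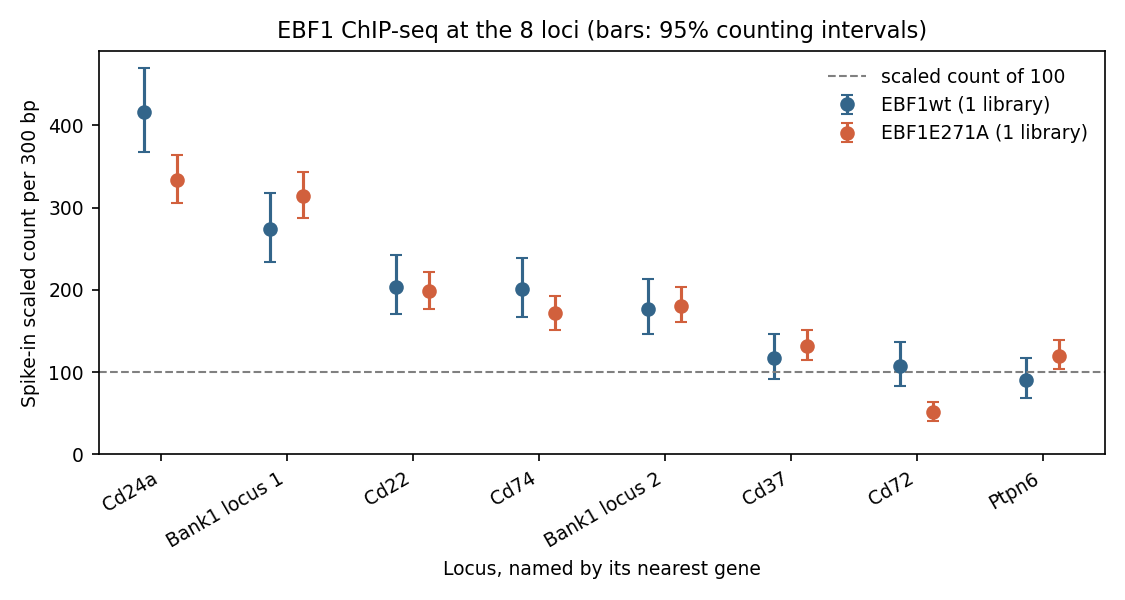
Spike-in scaled counts per 300 bp at the 8 loci for EBF1wt (blue) and EBF1E271A (orange), 1 library each, ordered by the EBF1wt count. Bars are exact Poisson 95% intervals and the dashed line marks 100, a value each deposited region exceeds in at least 1 library. The intervals of the libraries do not overlap at Cd24a (416 and 334) and Cd72 (108 and 51.2).

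As a group, the 8 loci were split evenly between lower and higher counts in EBF1E271A. The ratio was below 1 at 4 of the 8 and at or above 1 at 4, against 67.2% below 1 among all 2121 loci. The median log2 ratio (after adding 1 to each scaled count) was -0.0038 at the 8 loci, between -0.04 at Cd22 and 0.03 at the second Bank1 locus, and -0.16 over all loci. Without the Bank1 loci it was -0.13. Summed over the 8 loci, the scaled counts had a ratio of 0.948 (0.880 to 1.02), from 1003 reads for EBF1wt and 2376 for EBF1E271A. If the sums over all regions are made equal in place of the spike-in scale, each log2 ratio rises by about 0.22. Of the 8 loci, Cd22 alone then changed sign (from -0.04 to 0.18), and Cd74 came to -0.0065. Ratios are therefore also read against the median ratio of all loci, 0.896. The interval lay above that median at 2 of the 8 loci (the first Bank1 locus and Ptpn6), against 17.3% of all loci, and below it at 1 (Cd72), against 16.7%. At the other 5 it held the median ratio. Ptpn6 exceeded 100 in EBF1E271A alone and Cd72 in EBF1wt alone, which fixed the side of 1 for both. Among all loci above 100 in EBF1E271A alone, the interval lay above the median ratio at 132 of 180 and below it at 0. For those above 100 in EBF1wt alone, it lay below at 230 of 491 and above at 0. Read against 1 instead, the interval lay below it at Cd24a and Cd72 (29.8% of all loci) and above it at 0 of 8 (8.11%). These counts against 1 hold for the spike-in scale alone. Leaving aside Cd72 and Ptpn6, the 8 loci exceeded 100 in both libraries, as did 68.4% of all loci.

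**Figure D3:**
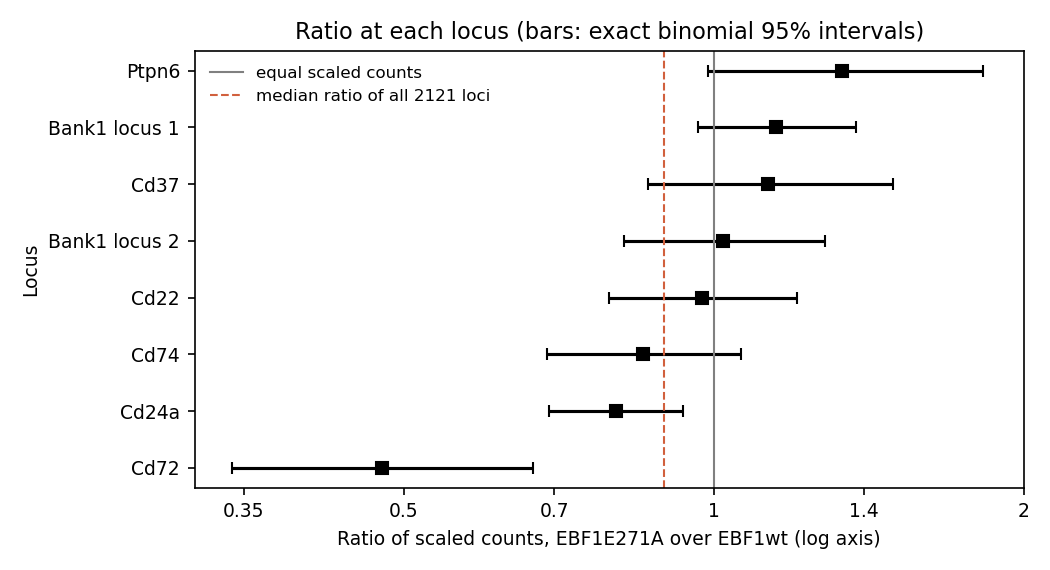
Ratio of scaled counts, EBF1E271A over EBF1wt, at each of the 8 loci on a log axis. Squares are ratios with exact binomial 95% intervals, the grey line marks equal counts and the dashed line the median ratio of all 2121 loci (0.896). Cd72 lies lowest at 0.477 and Ptpn6 highest at 1.33.

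Among the inhibitory coreceptors, Cd22 and Cd72 differed in both level and ratio. Cd22 encodes a lectin that binds sialic acids and dampens antigen receptor signalling. Its locus (chromosome 7, 30878935 to 30879234) lay inside the gene body, over the promoter shown above. The start site of that promoter lies within the gene body, and the centre of the locus was 1257.5 bp from the gene's 5′ end. This locus had a scaled count of 204 for EBF1wt (170 to 242) and 199 for EBF1E271A (177 to 222), from 129 and 314 reads. The ratio was 0.974 (0.791 to 1.20), so the libraries did not differ beyond counting error. The other region of this locus, offset by 17 bp, had a ratio of 0.999.

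Cd72 encodes a C-type lectin that, like CD22, carries an inhibitory motif. Its locus (chromosome 4, 43457105 to 43457404) lay outside the gene, 2.15 kb upstream of the gene's 5′ end, with no other protein-coding gene nearer than Tesk1 at 9.18 kb. The scaled count was 108 for EBF1wt (83.5 to 136) and 51.2 for EBF1E271A (40.7 to 63.7). This was the only one of the 8 loci with a lower count of at least 2-fold in EBF1E271A (ratio 0.477, 0.341 to 0.668), where 4.48% of all loci passed that size. None of the 8 was at least 2-fold higher, against 0.849% of all loci. At 1.5-fold the counts were the same, 1 lower (14.1% of all loci) and 0 higher (3.11%). With equal sums the ratio of Cd72 was 0.556, and no locus of the 8 reached 2-fold. With a pseudocount of 10 the log2 ratio of Cd72 was -0.94, also short of 2-fold.

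The ratio at Cd72 rests on few reads, at a locus near the floor of the region list. The locus held 68 reads for EBF1wt and 81 for EBF1E271A, before a scaling in which a read of EBF1wt counts 2.5 times one of EBF1E271A. It exceeded 100 scaled counts in EBF1wt alone, like 23.1% of all loci. Such loci have ratios below 1 by construction. Of the 491 loci of this kind, 80 (16.3%) were at least 2-fold lower, and their median ratio was 0.677. The part of this floor in the ratio of Cd72 was not tested. Of all 2121 loci, 82 had a lower log2 ratio than Cd72. The only other locus within 100 kb of the gene lay 25.3 kb away, nearest to Sit1, a gene for an adaptor that binds SHP-2. There the counts were 103 and 83.5, with a ratio of 0.812 (0.599 to 1.11).

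Ptpn6 encodes SHP-1, the phosphatase that CD22 and CD72 recruit. Its locus (chromosome 6, 124738587 to 124738886) had its centre 27.5 bp upstream of the gene's 5′ end and 446.5 bp from the neighbouring gene Grcc10, so it lay close to both genes. The scaled count was 90.1 for EBF1wt (68.3 to 117) and 120.2 for EBF1E271A (104 to 139), from 57 and 190 reads. The ratio of 1.33 (0.987 to 1.83) was the highest of the 8, and its interval held 1. This locus exceeded 100 in EBF1E271A alone, like 8.49% of all loci, which puts its ratio above 1 by construction. Among the 180 loci of this kind the median ratio was 1.35, and 53.3% had a log2 ratio at or above that of Ptpn6. Cd72 and Ptpn6 lay at opposite ends of the 8 ratios, each in the class of regions that fixes its direction. Cd22, the other inhibitory coreceptor gene, lay between them at 0.974.

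Bank1, a scaffold protein that links Lyn to calcium release after antigen receptor stimulation, was the only one of the 7 genes with a pair of loci. Both lay inside the 273 kb gene body, 25.1 and 23.4 kb from its 5′ end, with their centres 1709 bp apart. The next protein-coding gene, Ppp3ca, was 367 kb away from the nearer of them. The first (chromosome 3, 136300881 to 136301180) had scaled counts of 274 for EBF1wt (234 to 317) and 314 for EBF1E271A (287 to 343). The second (136302590 to 136302889) had 177 (146 to 213) and 181 (161 to 203). The farther locus was thus the stronger in both libraries, by 1.54-fold in EBF1wt and 1.74-fold in EBF1E271A.

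The ratios at the Bank1 loci were 1.15 (0.965 to 1.37) and 1.02 (0.818 to 1.28), and both intervals held 1. The interval of the first lay above the median ratio of all loci, and that of the second held it. Their log2 ratios differed by 0.17, with overlapping intervals. These loci count as 2 of the 8, although they belong to 1 gene.

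Cd24a, Cd37 and Cd74 encode surface proteins of other kinds. Cd24a, which encodes the heat-stable antigen, a lipid-anchored glycoprotein used to stage B cell precursors, had the strongest and most distant locus. It lay 56.2 kb from the gene body (chromosome 10, 43640311 to 43640610), and the next protein-coding gene, Mtres1, was 99.4 kb away on the same side. The scaled count was 416 for EBF1wt (367 to 469) and 334 for EBF1E271A (306 to 364), from 263 and 528 reads. On the spike-in scale the ratio of 0.803 (0.691 to 0.935) excluded 1, as did that of 29.8% of all loci on the lower side. Its interval held the median ratio. With equal sums the ratio was 0.937.

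Cd37 encodes a tetraspanin, a membrane protein that organises other receptors. Its locus (chromosome 7, 45233642 to 45233941) lay at the gene's 3′ end, with its centre 159.5 bp inside, and 323.5 bp from Tead2, a gene for a transcription factor of the Hippo pathway. The assignment to Cd37 therefore rests on a short distance, and the region does not lie at its promoter. Counts were 117 for EBF1wt (91.9 to 147) and 132 for EBF1E271A (115 to 151), with a ratio of 1.13 (0.863 to 1.49). The other region, offset by 34 bp, had a ratio of 1.01, the widest difference within any of the 8 loci (0.16 on the log2 scale). The other loci had differences of at most 0.04.

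Cd74 encodes the invariant chain, which guides MHC class II molecules to the compartments where they load peptides. Its locus (chromosome 18, 60799066 to 60799365) lay 4.63 kb below the lower coordinate of the gene. Counts were 201 for EBF1wt (167 to 239) and 171 for EBF1E271A (152 to 193), with a ratio of 0.854 (0.689 to 1.06) and thus with the median of all loci inside its interval. Among 13 genes of class II presentation listed with Cd74, only Ciita, which encodes their transactivator, had a locus (chromosome 16, 10522853 to 10523152). It lay inside the gene, where EBF1wt had 368 and EBF1E271A 482 (ratio 1.31, 1.13 to 1.52). The H2 class II genes in that list were not the nearest gene of any locus.

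**Figure D4:**
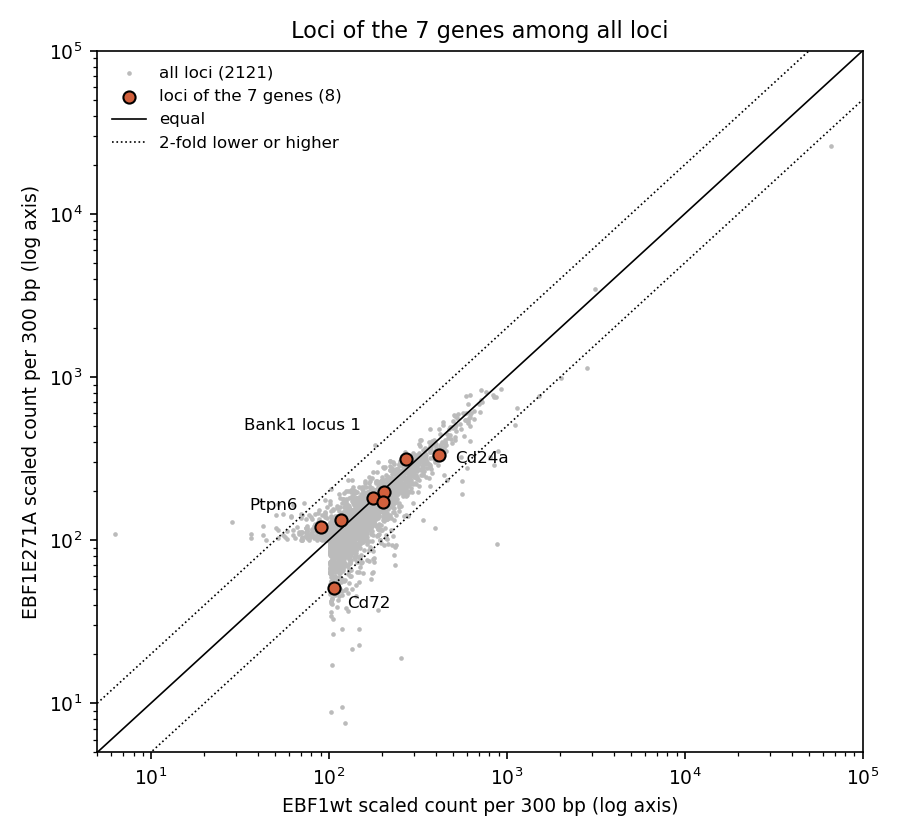
Scaled counts per 300 bp of EBF1wt (x axis) and EBF1E271A (y axis), both log axes, at all 2121 loci (grey) and the 8 loci of the 7 genes (orange). The solid line marks equal counts and dotted lines a difference of 2-fold: of the 8 loci, Cd72 alone lies past the lower dotted line.

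Further lists place the 8 loci among genes that act with them. Of 30 other coreceptor and surface regulator genes, 7 were the nearest gene of a locus, 1 each. Their median log2 ratio was -0.02, with ratios from 0.707 to 1.24. At 2-fold, 0 of 7 were lower (4.48% of all loci) or higher (0.849%). The interval lay below 1 at 1 of the 7, against 29.8% of all loci. It lay above the median ratio of all loci at 2 of the 7 (17.3% of all loci) and below it at 0 (16.7%). Among the strongest were a locus 341.5 bp from Cd40, the receptor for T cell help, with 319 for EBF1wt and 314 for EBF1E271A (ratio 0.984, 0.834 to 1.16), and one 2.67 kb from Tnfrsf13c, which encodes the BAFF receptor, with 262 and 287 (ratio 1.09, 0.914 to 1.31).

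Of 20 antigen receptor signalling genes, 10 had a locus, 13 loci in all. Their median log2 ratio was -0.24, against -0.16 over all loci. Ratios ran from 0.746 to 1.07 and were below 1 at 11 of 13, against 67.2% of all loci. The interval lay below 1 at 4 of the 13 (29.8% of all loci). It held the median ratio at all 13, as it did at 66% of all loci. At 2-fold, 0 of 13 passed in either direction, against 4.48% of all loci lower and 0.849% higher. Their strongest loci lay beside Cd79a, which encodes a signalling chain of the receptor (283 and 235, ratio 0.831, 0.694 to 0.999), beside Pik3ap1, an adaptor gene for phosphoinositide 3-kinase (294 and 223, ratio 0.757, 0.632 to 0.909), and inside Plcg2, which encodes the phospholipase of the pathway (240.3 and 244, ratio 1.01, 0.838 to 1.23). The other Plcg2 loci had lower ratios, 0.792 (0.651 to 0.967) at 3.21 kb from the gene and 0.849 (0.629 to 1.16) inside it. Inside Lyn, whose kinase phosphorylates CD22, the counts were 198 and 167, a ratio of 0.845 (0.680 to 1.05). Whether the ratios of these lists differ from those of the 8 loci was not tested, since each rests on the same pair of libraries.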

How the data were processed

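The authors deposited a signal for both ChIP libraries, scaled counts per the file headers, and a list of the same 4116 positions. Human spike-in chromatin was used for normalization per the labels' protocols. Tools named in the submitters' processing notes include MACS2 2.2.7.1 and, in no given role, Bowtie2 2.3.5.1. The build is GRCm38. Region calling and scale factors are not given in the sources used here. All values were whole multiples of 1 step per library (tolerance 0.001 counts), which gave the unscaled reads, 515897 for EBF1wt and 1105818 for EBF1E271A, counting a read once for each overlapping region.

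Genes came from RefSeq (GRCm38.p6, 21900 protein-coding genes). Strand came from the promoter table. Exons and introns were not analysed here. Where several promoter windows held a locus centre, the one with most matches was used. Starts are printed counted from 1. Regions with any overlap were merged. Log2 ratios used a pseudocount of 1, and a change meant 2-fold. Python 3.11.15 with scipy 1.17.1 was used, and the ratio and its interval were tested on simulated data.

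All loci of the 7 genes are named, and of each further list at most the 3 with the highest mean count. Lyn, the other Plcg2 loci and the neighbouring loci within 100 kb were added, chosen after their values were seen. Not every such locus is reported here. The members, lists and settings were chosen with earlier results of these data known.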

Additional observations from a re-analysis of the deposited data

How the results depend on the processing

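The median log2 ratio of the 8 loci, -0.0038 as reported, was 0.22 with equal sums of both libraries and 0.15 with equal sums that leave out the highest region. The median of all loci moved with it, from -0.16 to 0.06 and -0.01. Without the Bank1 loci it was -0.13, a change that comes from 2 of 8 values. With equal sums the number of loci at least 2-fold lower was 0 in place of 1, and the log2 ratio of Cd24a was -0.09. The log2 ratio of Cd72, -1.05 as reported, was -0.84 with equal sums and -0.90 without the highest region. It was -0.94 with a pseudocount of 10, so Cd72 fell short of 2-fold there too. With the mean of its regions it was -1.06. The number of genes with a motif match was 5 of 5 when 1 letter could differ. Of 54 values under other settings, 48 stayed close to those reported: single loci within their counting interval, the median within 0.11 (the margin of the log2 interval of the summed reads) and counts within 1.5 times. Signs did turn where a value lay near 0. The median changed sign under 9 settings. Cd22 did so under 2, with 0.18 for equal sums and 0.11 without the highest region. The other 7 loci kept their sign under the settings run for single loci, and no locus whose interval excluded 1 changed direction. Intervals were set against 1 on the spike-in scale alone, and which of them hold 1 depends on that scale. With equal sums the ratios were 0.937 at Cd24a, 1.34 at the first Bank1 locus and 1.56 at Ptpn6. These settings were a pseudocount of 10, the mean of a locus's regions, every region counted, genes within 10 kb, any gene within 50 kb, stronger loci only, each gene left out in turn, a 1.5-fold rule and an overlap of 150 bp. Many of these could hardly move a value. No paired analysis was possible because each group holds 1 library, and leaving out a replicate was not possible for the same reason. Depth limits the weakest loci most: Ptpn6 rests on 57 reads for EBF1wt and Cd72 on 68.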

Other observations

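Besides the locus near Sit1, 3 loci within 100 kb of the 7 genes had another gene as their nearest. At all 3 the interval included the median of all loci, 0.896. Inside Flt3l, which encodes a growth factor for lymphoid progenitors, 97.3 kb from Cd37, the counts were 98.0 for EBF1wt and 104 for EBF1E271A (ratio 1.06, 0.790 to 1.45). A locus 1.45 kb from Slc17a7, a glutamate transporter gene 71.2 kb from Cd37, had 111 and 103 (ratio 0.932, 0.700 to 1.25). Inside Ndst1, a heparan sulfate enzyme gene 95.3 kb from Cd74, the counts were 193 and 164 (ratio 0.853, 0.685 to 1.07), against 0.854 at Cd74 itself. No locus had one of the 7 genes as its nearest beyond 100 kb. No other locus lay within 100 kb of Cd22, Cd24a, Bank1 or Ptpn6.

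At the 84 loci centred in a promoter window with CCCNNGGG the median ratio was 0.892, and at the 41 without it 0.846, given as a description with no test. Cd22, with a match, had 0.974, and Ptpn6, without one, 1.33.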
